A study of Mus musculus with 13 samples.

Results

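Nrep, Gulp1 and Pxylp1 are 3 genes whose transcripts fell after serum was given back to C2C12 myoblasts, an established mouse line of muscle precursor cells. They are 3 of 18193 genes with a probe set of their own in the deposited table, and all 8 probe sets that name only 1 of them are described: 2 of Nrep, 3 of Gulp1 and 3 of Pxylp1. The genes were picked because their values on these same arrays showed strong, smooth falls, so their falls are given as a description and carry no test. Cells had been kept in medium with 0.2% fetal bovine serum for 24 h and were then given back serum-supplemented medium, a step that brings quiescent cells back into growth together. RNA was taken at 13 time points from 0 to 6.0 h, in steps of 0.5 h, and each was hybridised to 1 Affymetrix mouse array, with no replicates. By the labelled time, the arrays fall into 0 h (1 array, the end of serum withdrawal), early (0.5, 1.0, 1.5 and 2.0 h), middle (2.5, 3.0, 3.5 and 4.0 h) and late (4.5, 5.0, 5.5 and 6.0 h), and the study looked for oscillating genes of segment formation in the embryo. All groups share the cell line and the serum withdrawal, and no array of cells kept in serum throughout is used here. C2C12 is 1 immortal line, and each time point is a flask of its own, so flask and time cannot be told apart.

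The 3 genes act in unlike places. Nrep, also called P311, encodes a very small intracellular protein first described in the nervous system. It is made in wound myofibroblasts, where it promotes translation of the TGF-beta ligands through the initiation factor subunit encoded by Eif3b. Gulp1 encodes the adaptor that carries the signal from engulfment receptors such as LRP1 and MEGF10 into the cell, and its counterpart in the worm C. elegans is CED-6. Proteins of the engulfment machinery also serve in the fusion of myoblasts. Pxylp1 encodes a phosphatase of the Golgi that removes the phosphate which the kinase FAM20B places on xylose. That sugar is the first of the short linker on which heparan sulfate and chondroitin sulfate chains are built.

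Deposited values are linear ratios to a value of each probe set, and how that value was formed is not stated in the sources, so no level can be set against that of another gene. In 81.0% of 45037 probe sets exactly 1 array had a ratio of 1, and in 99.9% of those it ranked 6 to 8 of the 13 arrays. A ratio of 1 is thus near, but not always at, the middle array: the median ratio of the 8 probe sets described ran from 0.834 to 1.37, and Gulp1 probe set 1453771_at had 0 arrays at 1. Dim transcripts could not be told from bright ones. The number of arrays limits the precision. In RNA from a whole flask, fewer cells with a transcript and less of it per cell cannot be told apart. As ratios hold no level, the presence of myoblast markers could not be checked, only their course. Of 7 myoblast markers, 2 were lower with time (Cdh15 and Pax7) and 0 were higher. Of 7 markers of differentiated muscle, 3 were higher (Tnnt3, Myog and Ckm) and 0 lower, and of 6 fibroblast markers 4 were lower (Col1a1, Dcn, Pdgfra and Col1a2) and 0 higher. Of 9 blood and endothelial markers, 1 was higher (Adgre1) and 0 lower. These calls are from the straight-line test described below, in which 11.3% of all genes were called higher and 9.1% lower. Leaving out the 0 h array ended the calls of Cdh15, Pdgfra and Adgre1 (adjusted p = 0.0659, 0.126 and 0.193; limma, Benjamini-Hochberg). Pdgfra likewise missed the threshold when the 0.5 h array (adjusted p = 0.0593) or the 5.5 h array (adjusted p = 0.0628) was left out. Adgre1 was lost without the 2.0, 4.0 or 6.0 h array too (adjusted p = 0.0510, 0.0547 and 0.150), and with 1 probe set per gene (adjusted p = 0.0521). For 18S ribosomal RNA, the 5′ control had ratios of 0.889 to 5.24 on the late arrays, against 0.411 to 1.40 on the early arrays. The 6 control probe sets of beta-actin and Gapdh stayed between 0.916 and 1.13 on all 13 arrays. Whether any of these had a part in the falls was not tested.

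The stretches around the start of Gulp1 and Pxylp1 are shown so that the starts of the genes that fell last and first to their lowest array can be compared, and that of Nrep was not used here. They are RefSeq sequences of GRCm38.p6, from 250 bases before to 50 bases after the start, on the gene's own strand. The start used is 1 annotated start, 291 bases inside the outer bound of the gene in the same build for Gulp1 and 3214 bases inside it for Pxylp1, and no other start was looked at. Gulp1 lies at chr1:44551421-44551720 on the + strand and Pxylp1 at chr9:96889425-96889724 on the - strand. Capitals mark matches, on either strand, to the GC box GGGCGG and to the SMAD box CAGAC.
Gulp1: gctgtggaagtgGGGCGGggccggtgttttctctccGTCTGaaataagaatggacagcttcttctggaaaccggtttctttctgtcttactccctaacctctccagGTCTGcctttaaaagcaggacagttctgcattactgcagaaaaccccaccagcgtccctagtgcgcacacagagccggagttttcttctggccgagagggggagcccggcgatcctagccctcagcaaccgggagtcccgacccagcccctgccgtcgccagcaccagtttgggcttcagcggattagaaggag
Pxylp1: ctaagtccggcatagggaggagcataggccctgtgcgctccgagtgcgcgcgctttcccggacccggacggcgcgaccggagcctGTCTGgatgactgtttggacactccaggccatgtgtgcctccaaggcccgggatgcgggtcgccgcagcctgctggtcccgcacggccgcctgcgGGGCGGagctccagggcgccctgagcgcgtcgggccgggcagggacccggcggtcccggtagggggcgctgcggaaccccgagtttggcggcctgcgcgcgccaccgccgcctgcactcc

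Each stretch held 1 GC box, at -238 in Gulp1 and at -70 in Pxylp1, counted from the start to the match's leftmost base. A GC box occurs in 35.7% of 32851 stretches of this length in the same table. Gulp1 had 2 SMAD boxes (at -214 and -144) and Pxylp1 had 1 (at -165), and a SMAD box occurs in 49.6% of the stretches. No match was found in either for the FoxO motif TGTTTAC (3.65% of stretches), the AP-1 motif TGANTCA (7.81%), the cyclic AMP element TGACGTCA (1.79%), the E2F motif TTTNNCGC (5.17%), the MYC E-box CACGTG (7.15%) or the TATA box TATAAA (13.6%). None of the marked matches overlapped another. The share of G and C was 57.7% in Gulp1 and 74.3% in Pxylp1, against a median of 52.7% (quartiles 45.7% and 61.7%).

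Nrep had the deepest fall of the 3 by its mean and by probe set 1436736_x_at, but not by its other probe set, 1450839_at. On the log2 scale, 1450839_at changed by -1.67 from 0 h to its lowest array. Gulp1 1434423_at and 1453771_at changed by -2.39 and -1.88, and Pxylp1 1456735_x_at by -2.08. Nrep probe set 1436736_x_at had a ratio of 4.13 at 0 h, 3.49, 3.89, 3.34 and 2.05 on the early arrays, 0.885, 0.742, 0.487 and 0.418 in the middle window, and 0.491, 0.595, 0.667 and 1.00 late. It stayed high for 1.5 h, and its largest step, -1.21 on the log2 scale, lay between 2.0 and 2.5 h. At its lowest, at 4.0 h, it held 10.1% of its 0 h value. The other probe set, 1450839_at, had 2.08 at 0 h, 2.44, 2.49, 1.65 and 1.41 early, 1.10, 1.00, 0.877 and 0.901 in the middle window, and 0.651, 0.681, 0.874 and 0.913 late. It was highest at 1.0 h and lowest at 4.5 h, at 31.4% of the 0 h value. All 8 middle and late arrays lay under all 5 arrays up to 2.0 h in each of the 2 probe sets. They agreed in shape and differed in depth: Pearson's r between them was 0.94 and Spearman's rank correlation 0.88 over the 13 arrays, and the changes from 0 h to the lowest array were -3.30 and -1.67 on the log2 scale. The suffix _x_at marks a probe set that shares some probes with other sequences, and whether such sharing had a part in the deeper fall was not tested.

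The mean of the 2 Nrep probe sets was 99.8% of its 0 h level at 0.5 h, 106% at 1.0 h, 57.9% at 2.0 h and 33.7% at 2.5 h. It reached 19.3% at 4.5 h, the lowest point, and stood at 32.7% at 6.0 h. The low point was broad: the log2 values were -0.61, -0.70, -0.82 and -0.65 at 3.5, 4.0, 4.5 and 5.0 h, with a residual SD of 0.11 around a smooth curve. From the 1.0 h to the 4.5 h array the level fell at 0.70 log2 units per h, 1 halving in 1.42 h. The steepest stretch of 2 h ran from 1.0 to 3.0 h, with a slope of -0.99 log2 units per h. A straight line over all 13 arrays had a slope of -0.420 ± 0.065 log2 units per h (standard error), rank 7 of 18193 genes from the most negative. At 6.0 h the mean was 0.76 above its lowest point on the log2 scale, 1.69-fold.

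**Figure D1:**
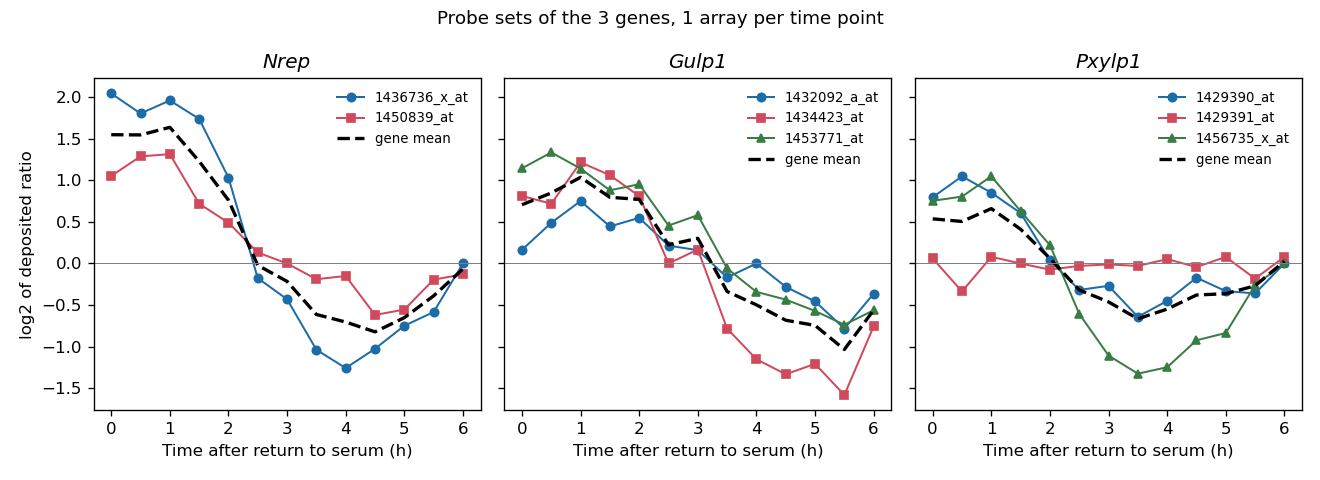
log2 of the deposited ratio (vertical axis) against hours after the return to serum (horizontal axis) for each probe set of Nrep, Gulp1 and Pxylp1, with 1 array per point and the gene mean dashed. Probe set 1436736_x_at of Nrep spans the widest range, and 1429391_at of Pxylp1 stays flat.

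Gulp1 kept its level longer and reached its lowest point last. Probe set 1434423_at had a ratio of 1.76 at 0 h, 1.65, 2.32, 2.09 and 1.75 on the early arrays, 1.00, 1.12, 0.581 and 0.450 in the middle window, and 0.397, 0.433, 0.334 and 0.592 late. Probe set 1453771_at had 2.21 at 0 h, 2.52, 2.21, 1.84 and 1.94 early, 1.37, 1.50, 0.959 and 0.789 in the middle window, and 0.740, 0.673, 0.600 and 0.677 late. Probe set 1432092_a_at had 1.12 at 0 h, 1.40, 1.68, 1.36 and 1.46 early, 1.16, 1.12, 0.890 and 1.00 in the middle window, and 0.823, 0.729, 0.581 and 0.777 late. In all 3, every late array lay under every array up to 2.0 h, and the lowest array was that of 5.5 h. In each, the 2.5 and 3.0 h arrays lay close together before a further step down to 3.5 h. The lowest values were 19.0%, 27.1% and 51.9% of 0 h, in the order in which the probe sets were given. The start differed as well: 1432092_a_at had gained 0.59 on the log2 scale by 1.0 h and 1453771_at had changed by -0.0033. Pearson's r between the 3 pairs was 0.91 to 0.96 and Spearman's rank correlation 0.87 to 0.90.

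The mean of the 3 Gulp1 probe sets was at 126% of its 0 h level at 1.0 h and was still at 105% at 2.0 h, where the mean of Nrep was at 57.9%. It stood at 71.6% and 75.6% at 2.5 and 3.0 h, at 48.5% at 3.5 h and at 29.9% at 5.5 h. The 6.0 h array was higher, at 41.5%, which is 0.47 above the lowest on the log2 scale with a residual SD of 0.16. From the 1.0 h to the 5.5 h array it fell at 0.46 log2 units per h, 1 halving in 2.17 h, and the steepest 2 h lay between 2.0 and 4.0 h (slope -0.62). The straight line had a slope of -0.348 ± 0.036 log2 units per h (rank 17 of 18193 genes). Of the 3 genes, Gulp1 was nearest to a steady fall, as the line accounted for 86.5% of its variance.

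Pxylp1 fell as early as Nrep, but only on 2 of its 3 probe sets. At 6.0 h its mean was the nearest of the 3 to its 0 h level, although the rise from the lowest array was 1.62-fold, against 1.69-fold for Nrep. Probe set 1456735_x_at had a ratio of 1.69 at 0 h, 1.75, 2.07, 1.55 and 1.17 on the early arrays, 0.657, 0.464, 0.399 and 0.421 in the middle window, and 0.527, 0.560, 0.834 and 1.00 late. Probe set 1429390_at had 1.74 at 0 h, 2.07, 1.80, 1.52 and 1.03 early, 0.802, 0.830, 0.641 and 0.732 in the middle window, and 0.888, 0.794, 0.779 and 1.00 late. Both were lowest at 3.5 h, at 23.7% and 36.9% of their 0 h values, and both were back at a ratio of 1.00 at 6.0 h, 59.3% and 57.6% of 0 h. Every middle and late array lay under every array up to 2.0 h in both. The third, 1429391_at, showed no fall: it stayed between 0.792 and 1.06 on all 13 arrays, with its lowest value at 0.5 h and a slope of 0.011 ± 0.019 log2 units per h. Pearson's r was 0.93 between the 2 that fell, and -0.20 and -0.17 between each of these and the flat one. Spearman's rank correlation was 0.90 between the 2 that fell and 0.077 and 0.094 with the flat one, so the sign against the flat probe set was not settled, and without the 0.5 h array the median Pearson's r of the 3 pairs was 0.386. The annotation names Pxylp1 alone for all 3, and which part of the transcript each reads is not stated in the sources.

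Because the flat probe set enters the mean, the gene mean of Pxylp1 understates the fall of the other 2. The mean was at 109% of 0 h at 1.0 h, 71.9% at 2.0 h, 43.5% at 3.5 h, its lowest, and 70.2% at 6.0 h. Its straight-line slope was -0.164 ± 0.043 log2 units per h (rank 182 of 18193 genes), while the slopes of the 2 falling probe sets were -0.283 ± 0.083 and -0.222 ± 0.048. From the 1.0 h to the 3.5 h array the mean fell at 0.53 log2 units per h, 1 halving in 1.89 h. Probe set 1429390_at alone fell at 0.56 log2 units per h from 0.5 to 3.5 h, 1 halving in 1.78 h. Probe set 1456735_x_at alone fell at 0.95 log2 units per h from 1.0 to 3.5 h, 1 halving in 1.05 h. The steeper Nrep probe set, 1436736_x_at, had 0.83 log2 units per h. After 3.5 h, 1456735_x_at gained 1.33 by 6.0 h, 2.51-fold over its lowest value. The line accounted for 49.0% of the variance of the gene mean, and a smooth curve (a natural cubic spline with 4 degrees of freedom) for 98.1%.

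**Figure D2:**
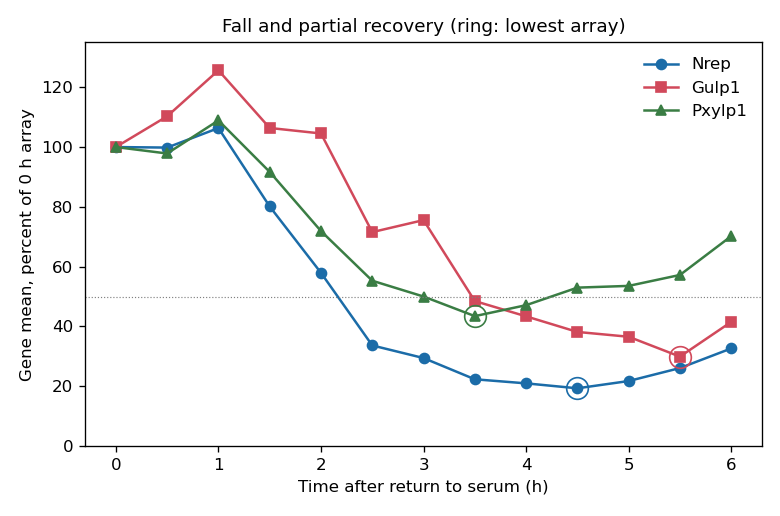
Mean over the probe sets of each gene, as percent of its 0 h array (vertical axis, from 0), against hours after the return to serum, 1 array per point. Rings mark the lowest arrays, at 3.5 h for Pxylp1, 4.5 h for Nrep and 5.5 h for Gulp1, and the dotted line marks 50%.

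Set side by side, the falls were strong but not steady. Of the 12 steps between neighbouring arrays, 8 went down in the mean of Nrep, 8 in that of Gulp1 and 6 in that of Pxylp1. All 3 means were highest at 1.0 h, and most of each fall lay between 1.0 and 3.5 h: -2.25 for Nrep, -1.37 for Gulp1 and -1.33 for Pxylp1 on the log2 scale. Not every probe set was highest at 1.0 h. Nrep 1436736_x_at was highest at 0 h, and Gulp1 1453771_at and Pxylp1 1429390_at at 0.5 h, while the others that fell were highest at 1.0 h. The Nrep mean gained only 0.089 from 0 to 1.0 h, with a residual SD of 0.11. After 3.5 h the means parted, as the change up to 6.0 h was 0.55 for Nrep, -0.22 for Gulp1 and 0.69 for Pxylp1. Probe sets of the same gene differed in this change. It was 1.04 in Nrep 1436736_x_at and 0.058 in 1450839_at, and 0.027, -0.20 and -0.50 in Gulp1 1434423_at, 1432092_a_at and 1453771_at. In Pxylp1 it was 1.33 in 1456735_x_at, 0.64 in 1429390_at and 0.11 in the flat 1429391_at. The parting of Nrep from Gulp1 thus rested mostly on 1436736_x_at. A smooth curve accounted for 99.1% of the variance of the Nrep mean and 96.7% of that of Gulp1, against 73.3% and 86.5% for the straight line. The means of Nrep and Pxylp1 correlated at r = 0.95 (Spearman 0.89), those of Nrep and Gulp1 at 0.89 (Spearman 0.84) and those of Gulp1 and Pxylp1 at 0.75 (Spearman 0.63). These are descriptions over 13 arrays, and the 3 genes were read from the same flasks on the same time axis.

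The study's own question was whether a transcript oscillates. The genes were picked for smoothness on these same arrays, which bears on any departure from a trend, so the waves of the 8 probe sets are given as a description with no test. Waves of a 2 h period, fitted as cosine and sine on top of a smooth trend, had amplitudes of 0.030 to 0.12 on the log2 scale in the 8 probe sets. Over all 45037 probe sets 0 were called (0%; limma, Benjamini-Hochberg), with a smallest adjusted p of 0.999. An unadjusted p under 0.05 was seen in 1716 (3.81%), a smaller share than that threshold gives where no probe set oscillates. With a period of 3 h, 142 probe sets were called, 0.315% of all. The amplitudes at 3 h were 0.29 in Pxylp1 1456735_x_at, 0.26 in Nrep 1436736_x_at and 0.23 in Pxylp1 1429390_at. They were smaller in the others: 0.21 in Nrep 1450839_at, 0.17, 0.11 and 0.074 in Gulp1, and 0.022 in Pxylp1 1429391_at. The arrays span only 6.0 h, and the trend under the waves had 3 degrees of freedom. Whether a 3 h wave took up bends of the fall was not tested. With no wave, a smooth curve of 4 degrees of freedom accounted for 99.2% of the variance of Pxylp1 1456735_x_at. For Nrep 1436736_x_at and Pxylp1 1429390_at it accounted for 98.8% and 93.9%.

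Many other genes followed a course like that of the 3. Over the 13 arrays, 413 of the other 18192 genes (2.27%) had a Pearson's r of at least 0.9 with Nrep, 296 (1.63%) with Pxylp1 and 158 (0.869%) with Gulp1. The 5 nearest to Nrep were Cavin2 (r = 0.995), which encodes a protein of the caveolar coat, Add3 (0.989), an adducin of the membrane skeleton, Spag5 (0.988), a spindle protein, the transcription factor gene Tcf4 (0.985) and Triobp (0.983), which encodes an actin-binding protein. Their falls from 0 h to the lowest array were smaller than that of Nrep. They ran from -0.73 (Add3) to -1.40 (Cavin2) on the log2 scale, against -2.37 for Nrep, and their lowest arrays were those of 4.0 and 4.5 h.

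Nearest to Gulp1 were Arhgap24 (r = 0.979), which encodes a GTPase-activating protein, the centrosomal gene Cep128 (0.977), Angpt1 (0.977), a ligand of the TIE2 receptor, the dynein chain gene Dync1i1 (0.977) and Hmgcs1 (0.974), which makes a precursor of cholesterol. The change from 0 h to the lowest array was -1.65 for Hmgcs1, -1.57 for Angpt1 and -0.41 for Cep128, against -1.74 for Gulp1. Nearest to Pxylp1 were Heca (0.985), the phosphatase gene Ctdsp2 (0.979), Pogz (0.977), which encodes a zinc finger protein, the E2F partner gene Tfdp2 (0.974) and the dystrobrevin gene Dtna (0.974). Heca changed by -1.19 to its lowest array and stood 0.68 above it at 6.0 h, where Pxylp1 had -1.20 and 0.69. These 15 genes were ranked by likeness alone, and neighbours in the ranking differ by little.

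**Figure D3:**
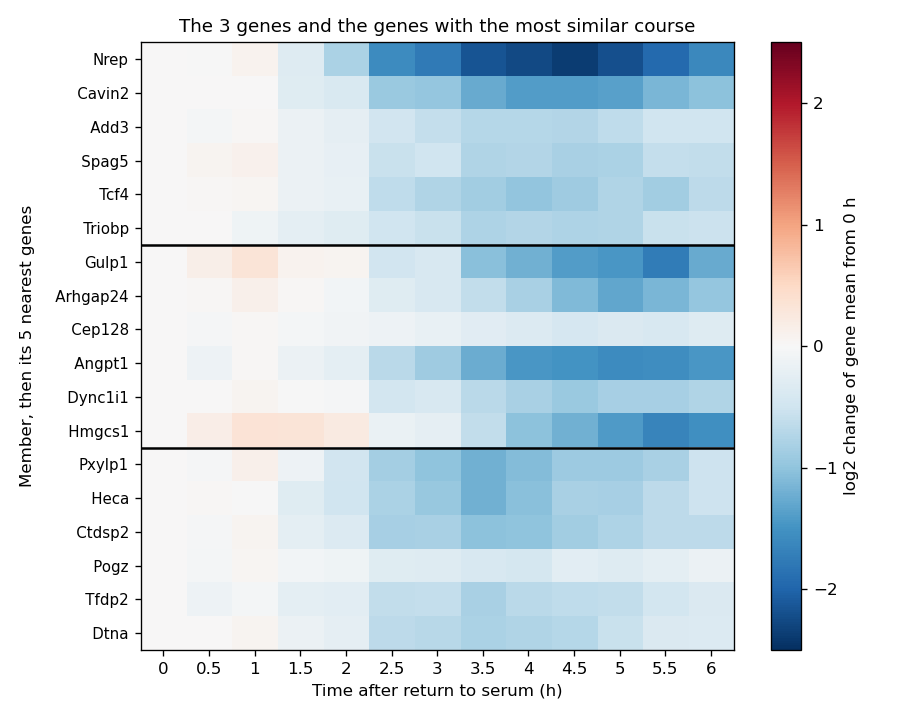
log2 change of the gene mean from the 0 h array (colour) for each of the 3 genes and, under it, its 5 nearest genes by Pearson's r over 13 arrays, with hours after the return to serum on the horizontal axis. The blue band is darkest for Nrep around 4.5 h and for Gulp1 around 5.5 h, and fades again for Pxylp1 and Heca by 6.0 h.

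Genes that work with the 3 proteins were read from lists, with the slope of a straight line in time tested for all 18193 genes (limma, two-sided, adjusted p under 0.05 by Benjamini-Hochberg). The test called 20.4% of all genes, 11.3% higher and 9.1% lower with time, and the median slope over all genes was 0.0022 log2 units per h. With 1 array per time point, these p-values rest on the spread around the line. Of the 5 measured genes of the linker on which Pxylp1 acts, 1 was higher and 0 lower. It was B4galt7, the enzyme that adds the first galactose, with a slope of 0.120 ± 0.025 (adjusted p = 0.00295). Fam20b, the kinase that opposes Pxylp1, had a slope of 0.026 ± 0.012 (adjusted p = 0.137), and the xylosyltransferase gene Xylt2 had -0.021 ± 0.024 (adjusted p = 0.629). Xylt1 was not analysed here. With 1 probe set per gene, the one with the widest range, Fam20b passed (slope 0.062, adjusted p = 0.0179), making 2 higher.

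Among 21 measured genes that build or edit heparan sulfate, 5 were lower and 2 higher. The lower ones included Ext1 (-0.100 ± 0.016, adjusted p = 3.68e-04), a subunit of the chain polymerase, and Hs2st1 (-0.076 ± 0.013, adjusted p = 6.99e-04), a sulfotransferase. Extl3 (-0.067 ± 0.021) and the sulfatase gene Sulf2 (-0.057 ± 0.011) were lower too, while the glycosyltransferase gene Extl2 (0.073 ± 0.021) and the sulfotransferase gene Hs3st2 (0.038 ± 0.012) were higher. Of 16 chondroitin sulfate genes, 1 was higher, the sulfotransferase gene Chst11 (0.193 ± 0.041, adjusted p = 0.00307), and 0 were lower. Of 20 proteoglycan core proteins, 4 were lower and 1 higher. Those lower were Hspg2 (perlecan, -0.100 ± 0.018), Dcn (decorin, -0.067 ± 0.016), the glypican gene Gpc6 (-0.052 ± 0.012) and Vcan (versican, -0.048 ± 0.011), and Cspg4, a membrane proteoglycan, was higher (0.085 ± 0.023). The median slopes of the 4 proteoglycan lists lay between -0.0095 and 0.0087. Without the 0 h array, 3 heparan sulfate genes were lower and 1 higher, and the calls of Extl3, Hs3st2 and Cspg4 were lost (adjusted p = 0.102, 0.105 and 0.0599). Without the 5.0 h array 3 heparan sulfate genes were lower, Extl3 being lost (adjusted p = 0.0610), and without the 0.5 h array Extl3 and Hs3st2 were lost (adjusted p = 0.0859 and 0.0742). With 1 probe set per gene 3 heparan sulfate genes were lower, Extl3 being lost (adjusted p = 0.0575). Extl2 was lost without the 5.5 or the 6.0 h array (adjusted p = 0.0608 and 0.0558). Leaving out the 0, 0.5, 1.0, 1.5, 2.0, 2.5, 3.5 or 4.0 h array raised the higher chondroitin sulfate genes to 2 or 3, as did median centring (3) and the robust variance trend (2). With 1 probe set per gene the slopes of Ext1, Hs2st1, Sulf2, Hs3st2, Hspg2, Dcn, Gpc6 and Vcan were 1.54 to 2.91 times as steep and stayed called, Vcan having -0.139.

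**Figure D4:**
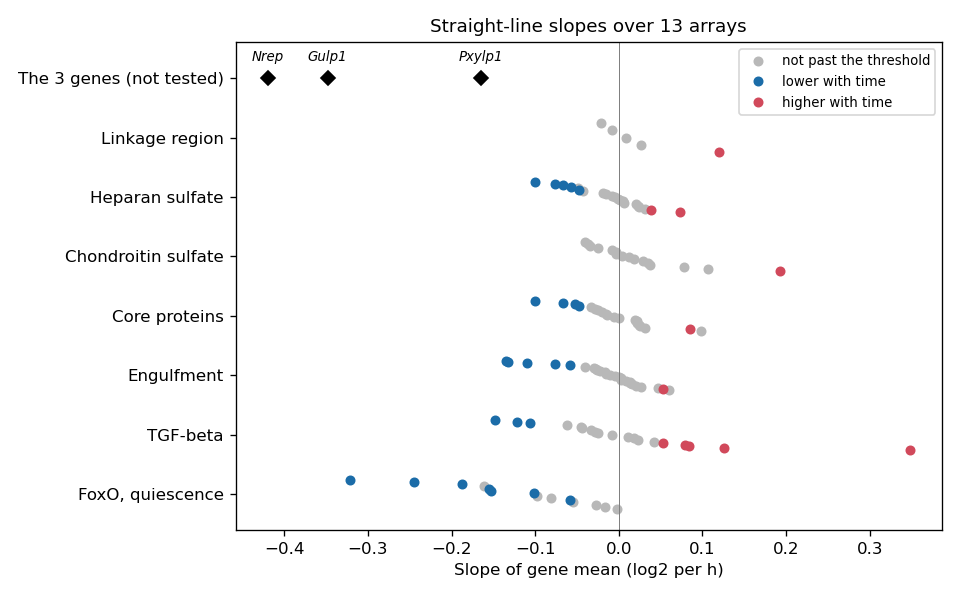
Straight-line slope of the gene mean in log2 units per h (horizontal axis) over 13 arrays, 1 point per gene, for the 3 genes (top row, not tested) and 7 gene lists. Blue and red points passed the test as lower and higher with time; Nrep and Gulp1 lie to the left of every listed gene.

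Of 26 engulfment genes around Gulp1, 5 were lower and 1 higher. The receptor gene Lrp1, whose product binds the adaptor, was lower (-0.132 ± 0.029, adjusted p = 0.00352), as were the integrin gene Itgb5 (-0.135 ± 0.019, adjusted p = 8.77e-05), the lipid transporter gene Abca7 (-0.110 ± 0.019, adjusted p = 6.98e-04) and Dock1 (-0.076 ± 0.021, adjusted p = 0.0184), an activator of Rac. Crk, an adaptor upstream of Dock1, was higher (0.053 ± 0.014, adjusted p = 0.0127). The other receptor named above, Megf10, had a slope of 0.015 ± 0.017 (adjusted p = 0.598). The median slope of the list was -0.0070. Without the 0 h array, Dock1 and Crk were lost (adjusted p = 0.0505 and 0.0654), leaving 0 higher, and without the 1.5 or the 2.0 h array 2 were higher. With 1 probe set per gene, Lrp1, Dock1 and Crk were lost (adjusted p = 0.133, 0.0654 and 0.282), leaving 3 lower and 0 higher.

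Around Nrep, 5 of 19 genes were higher and 3 lower, in a list of the TGF-beta pathway, its myofibroblast targets and Eif3b. Tagln, a smooth muscle actin-binding protein and TGF-beta target, had a slope of 0.348 ± 0.032 (adjusted p = 2.18e-06), equal in size to that of Gulp1 with the opposite sign. Ltbp2, of the latent TGF-beta binding protein family (0.126 ± 0.023), Eif3b (0.084 ± 0.014, adjusted p = 5.79e-04), the translation partner of the Nrep protein, and the calponin gene Cnn1 (0.079 ± 0.014) were higher too. The signal transducer gene Smad3 (-0.148 ± 0.023, adjusted p = 2.06e-04), the receptor gene Tgfbr2 (-0.122 ± 0.016, adjusted p = 6.60e-05) and Ltbp4, of the same family as Ltbp2 (-0.106 ± 0.018) were lower. The slope of Tgfbr2 was -0.192 without floor-scaled probe sets, those with a ratio of 1 away from the middle arrays, and -0.207 with 1 probe set per gene. The ligand genes did not pass, with slopes of 0.043 ± 0.017 for Tgfb1 (adjusted p = 0.0986), 0.011 ± 0.028 for Tgfb2 (adjusted p = 0.840) and -0.029 ± 0.018 for Tgfb3 (adjusted p = 0.329). Acta2, a listed myofibroblast target, did not pass either (0.023 ± 0.025, adjusted p = 0.612). Late minus early called 5 of the 19 lower and 4 higher, against 9.29% and 11.7% of all genes. Smad7 was among those lower (-0.617 ± 0.122, adjusted p = 0.00217), though its slope did not pass (adjusted p = 0.651).

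The FoxO factors and genes tied to quiescent cells gave a list beside which the 3 slopes can be set. Of 14, 7 were lower and 0 higher, with a median slope of -0.099, against 9.1% lower and 11.3% higher of all genes. Without the 0 h array 5 of the list were lower. A slope does not hold the shape of a course. Ccng2 and Txnip were not called (adjusted p = 0.307 and 0.894). Their log2 values went from 1.73 and 1.06 at 0 h to early means of 0.12 and -0.35. Cited2 and Klf2 were called lower, though their early means (0.73 and 0.34) lay above 0 h (0.18 and 0.10). Sesn3, a stress-induced inhibitor of mTORC1 signalling, had a slope of -0.321 ± 0.041 (adjusted p = 4.57e-05), close to -0.348 for Gulp1. Sesn1 (-0.245 ± 0.070, adjusted p = 0.0204), the pocket protein gene Rbl2 (-0.187 ± 0.044, adjusted p = 0.00556) and Pik3ip1, an inhibitor of phosphoinositide kinase signalling (-0.155 ± 0.038, adjusted p = 0.00882) followed. Their timing differed: Sesn3 and Rbl2 were highest at 0.5 h and lowest at 4.5 and 3.5 h. Sesn1 was highest at 0 h and lowest at 2.5 h. Pik3ip1 went from a log2 value of 1.21 at 0 h to 0.66 at 0.5 h. Sesn1 was lost without the 0, 0.5 or 1.0 h array (adjusted p = 0.102, 0.0724 and 0.0513) and had a slope of -0.398 with 1 probe set per gene. Without the 0 h array the slope of Pik3ip1 was -0.0988 (adjusted p = 0.0400). In the comparison of the late with the early window, where 11.7% of all genes were called higher and 9.29% lower, 6 of the 14 were lower and 0 higher. The mean log2 ratio of Sesn3 was -0.51 late and 0.93 early, a difference of -1.44 ± 0.13 (adjusted p = 1.33e-05).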

How the data were processed

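RNA of 13 C2C12 samples was labelled with biotin and hybridised to 1 Affymetrix array each, per the labels' protocols. The values the authors deposited are linear ratios, and RMA is named in the submitters' processing notes, with no version. The step that formed the ratios is not stated in the sources. Most lie around a value near the middle array of each probe set, which is where a median over more arrays than these 13 would lie. In 4608 of 45037 probe sets (10.2%) a ratio of 1 lay outside the values ranked 6 to 8 instead. These are called floor-scaled here, though division by a floor was not tested. None of the 8 described was among these. A ratio holds no absolute level, and dim transcripts may have had their changes compressed.

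The log2 of each ratio was used without further scaling. Of 45101 probe sets, 64 array controls were left out. Platform annotation gave 1 symbol for 34945, several for 932 and none for 9160, and only those with 1 were named. A gene's value is the mean over its probe sets. limma 3.58.1 in R 4.3.3 fitted, over all 13 arrays, a line in time, window means (late minus early) and a 2 h cosine and sine on a spline trend of 3 degrees of freedom. Benjamini-Hochberg adjustment ran over the whole table, with 0.05 as threshold. Each test was tried on simulated data. Tables were made in Python 3.11.15 with numpy 2.4.6 and pandas 2.3.3, figures with matplotlib 3.10.9. Members, lists and tests were chosen with earlier results of these data known. Besides members and their protein partners, named genes were up to 4 called per list and direction by size of slope, and the 5 nearest by Pearson's r. Alternatives were quantile normalization, median centring, floor-scaled probe sets left out, a variance trend with a robust prior, each array left out in turn, other time curves, windows, periods and 1 probe set per gene.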

Additional observations from a re-analysis of the deposited data

How the results depend on the processing

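No paired analysis was possible because the labels give 1 array per time point and no replicate numbers. Quantile normalization, which equalises the wider spread of the earliest arrays, gave Nrep a slope of -0.34 and a change from 0 h to the lowest array of -2.20, and Pxylp1 a change of -1.12. Depth depended more on the probe set. For Nrep, 1436736_x_at and 1450839_at alone had slopes of -0.54 and -0.30 and changes of -3.30 and -1.67. For Gulp1, 1432092_a_at and 1434423_at had slopes of -0.20 and -0.47 and changes of -0.95 and -2.39. For Pxylp1, 1429390_at and 1456735_x_at had slopes of -0.22 and -0.28 and changes of -1.44 and -2.08, while 1429391_at reversed the slope (0.011) and had a change of -0.40. Curves in place of the line called 13386 (3 degrees of freedom) and 13815 (4) against 6663 probe sets, and 6911 (4) against 3704 genes. A minimum log2 difference of 1 left 131 of 3827 genes in late minus early, and a 3 h period called 142 probe sets against 0.

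With 1 array left out in turn, slopes ran from -0.51 to -0.39 for Nrep, -0.39 to -0.33 for Gulp1 and -0.22 to -0.14 for Pxylp1. Changes from 0 h ran from -2.37 to -2.25, -1.74 to -1.45 and -1.20 to -1.09. The median r between probe sets ran from 0.931 to 0.954 for Nrep, 0.908 to 0.949 for Gulp1 and, changing sign without the 0.5 h array, -0.341 to 0.386 for Pxylp1. Counts ran from 5221 to 6840 probe sets and 2925 to 3782 genes for the slope, 3103 to 3868 genes for late minus early, 28 to 38 of the listed pathway genes (35 with all arrays) and 0 to 0 for the 2 h oscillation. Median centring, leaving out floor-scaled probe sets and the robust variance trend each kept all 44 named list genes on their side of the threshold, and quantile normalization ended 2 calls, of Adgre1 and Hs3st2. The higher chondroitin sulfate genes were 3 under median centring and 2 under the variance trend, against 1, and the Tgfbr2 slope was -0.192 without floor-scaled probe sets, against -0.122. With 1 probe set per gene, 13 of the called slopes were over 1.5 times as steep, up to 2.91 times. Signal over background is unknown.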
